A study of Mus musculus with 13 samples.

Results

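A set of 10 genes encodes the core of major histocompatibility complex (MHC) class I antigen presentation and is described here: the heavy chains H2-K1 and H2-D1 and the light chain B2m, the peptide loading genes Tap1, Tap2 and Tapbp, the inducible proteasome subunits Psmb8, Psmb9 and Psmb10, and the transactivator Nlrc5. They were chosen by symbol, as 10 of the 33618 gene identifiers in the deposited count table, and all 10 were among the 16753 genes that passed the filter on low counts. The libraries were bulk RNA-Seq of whole parametrial white adipose tissue (pmWAT), the visceral gonadal fat of female mice, with 1 library per mouse. Every mouse carried Lmna fl/fl alleles, with loxP sites around a pair of exons of the lamin A/C gene, and every mouse was injected with tamoxifen at 50 mg/kg on 5 consecutive days when 12 to 14 weeks old and dissected 2 weeks posttamoxifen. The 6 Lmna iADKO mice also carried Adipoq-CreERT2 +/-, a tamoxifen-activated Cre driven by the adiponectin promoter and therefore active in adipocytes. The 7 Lmna fl/fl mice carried no Cre, so the presence of Cre and the deletion of Lmna cannot be told apart.

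Class I molecules display peptides cut from the cell's own proteins on the surface of almost every nucleated cell, adipocytes and immune cells included, where CD8 T cells read them and natural killer (NK) cells sense their absence. Peptides are cut by the proteasome, carried into the endoplasmic reticulum by the TAP transporter and fitted into an empty heavy chain with B2m by tapasin, the product of Tapbp. Interferons raise most of these genes, exchange the constitutive catalytic subunits of the proteasome for inducible ones and raise NLRC5, which switches on class I genes at their promoters.

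Levels are given as CPM, counts scaled to a common library size by the trimmed mean of M values (TMM), which sets aside the genes that differ most between libraries. Between 18854223 and 19776491 reads per library were counted on genes, and the members had 501 to 36824 counts in a library. TMM factors were 0.892 to 1.02 in Lmna fl/fl and 1.05 to 1.10 in Lmna iADKO, so they differed with genotype. The targeted gene Lmna was at 84.7 ± 7.51 CPM in the 7 libraries labelled Lmna fl/fl and at 96.7 ± 11.5 CPM in the 6 labelled Lmna iADKO (edgeR log2 fold change 0.19, adjusted p = 0.0785), so its level did not check the labels. Counts of the whole gene cannot show the deleted exons apart, and directions rest on the labels. All 8 adipocyte markers were detected in every library, with a sum between 8152 and 23099 CPM.

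Promoters of the members are shown first because those of the 3 genes of the class I molecule itself hold a kB and an IRF motif, which the windows of the other 5 members do not. RefSeq windows of the 250 bases before the annotated start, on GRCm38.p6, were found for 8 of the 10 members, and Tap2 and Nlrc5 have none in the table used. Capitals mark matches on either strand to 5 motifs that were chosen after the sequences were seen: a kB motif (GGG, a pair of free bases, TT, 1 free base, CCC), an interferon regulatory factor (IRF) motif (AANNGAAA), TGACG from the cyclic AMP response element, CCAAT, and the STAT motif TTCNNNGAA known as GAS. No marked stretches overlap in the windows below, which lie at chr17:34000348-34000597 (minus strand), chr17:35262844-35263093 (plus strand), chr2:122147437-122147686 (plus strand), chr17:34187306-34187555 (plus strand) and chr17:34197945-34198194 (plus strand).
H2-K1: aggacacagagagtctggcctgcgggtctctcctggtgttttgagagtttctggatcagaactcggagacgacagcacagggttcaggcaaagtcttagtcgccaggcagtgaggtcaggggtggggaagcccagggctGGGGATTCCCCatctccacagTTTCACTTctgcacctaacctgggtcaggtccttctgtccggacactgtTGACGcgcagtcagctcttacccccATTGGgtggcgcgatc
H2-D1: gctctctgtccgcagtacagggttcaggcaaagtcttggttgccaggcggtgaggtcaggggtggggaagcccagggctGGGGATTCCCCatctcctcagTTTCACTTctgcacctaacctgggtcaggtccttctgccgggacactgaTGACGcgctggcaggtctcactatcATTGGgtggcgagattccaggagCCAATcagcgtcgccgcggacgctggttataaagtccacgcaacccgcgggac
B2m: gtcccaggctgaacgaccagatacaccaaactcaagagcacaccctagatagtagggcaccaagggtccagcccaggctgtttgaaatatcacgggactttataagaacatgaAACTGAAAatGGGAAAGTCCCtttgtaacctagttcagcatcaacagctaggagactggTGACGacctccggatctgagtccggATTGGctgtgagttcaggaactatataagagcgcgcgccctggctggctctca
Tap1: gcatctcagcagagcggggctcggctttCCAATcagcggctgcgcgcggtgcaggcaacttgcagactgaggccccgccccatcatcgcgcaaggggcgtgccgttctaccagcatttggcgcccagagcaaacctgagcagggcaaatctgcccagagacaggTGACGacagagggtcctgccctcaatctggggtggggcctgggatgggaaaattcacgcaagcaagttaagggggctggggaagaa
Psmb8: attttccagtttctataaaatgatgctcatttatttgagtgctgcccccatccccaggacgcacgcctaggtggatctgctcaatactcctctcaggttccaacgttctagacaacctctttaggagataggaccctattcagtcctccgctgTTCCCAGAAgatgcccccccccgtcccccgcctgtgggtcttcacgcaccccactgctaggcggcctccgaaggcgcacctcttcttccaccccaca

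The kB motif, the rarest of the 5, was found in 1.22% of all 27025 windows of this length and in those of H2-K1, H2-D1 and B2m, 3 of the 8 members. The same 3 windows held an IRF motif, which 21.6% of all windows hold. In H2-K1 and H2-D1 the kB motif, the IRF motif, TGACG and CCAAT followed each other in one order with 21, 49 and 25 bases between their starts, although the kB motif began 111 bases before the annotated start of H2-K1 and 171 before that of H2-D1, which also held another CCAAT at 53 bases. In B2m the IRF motif stood upstream of the kB motif, at 137 and 127 bases before the start. TGACG was found in 5 of the 8 windows against 17.9% of all, and CCAAT in 6 against 34.5%. The GAS letters were found in Psmb8 alone among the members and in 7.18% of all windows. The Psmb9 window is nearly the reverse strand of the Tap1 window, since both genes start from one shared stretch in opposite directions. The TGACG and the CCAAT of these windows are therefore the same sites, each counted for both genes. These matches are descriptions of letters, and binding was not measured.

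Levels differed widely among the members. Per kilobase of annotated exon, the level in Lmna fl/fl was 612 ± 24.7 CPM per kb for B2m, 537 ± 34.6 for H2-D1 and 345 ± 24.3 for H2-K1 (SD, n = 7). Tapbp followed at 67.4 ± 6.07 CPM per kb. The remaining members lay between 29.3 ± 3.18 CPM per kb for Psmb10 and 7.13 ± 0.70 for Nlrc5, with Tap2, Psmb8, Tap1 and Psmb9 between them at 25.1, 16.9, 11.2 and 9.39. The genes of the surface molecule were thus far above those of loading, cutting and control. In Lmna fl/fl, the ranges of mean ± SD overlapped for Psmb10 and Tap2 and for Tap1 and Psmb9. These SDs are between mice, and differences between genes within a library were not tested. In Lmna iADKO, B2m and H2-D1 were within their SDs of each other, at 577 ± 43.2 and 569 ± 24 CPM per kb (n = 6).

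Of the 10 members, 1 was higher in Lmna iADKO pmWAT and 0 were lower by edgeR's quasi-likelihood test with Benjamini-Hochberg adjustment over all genes tested. Among those 16753 genes, 30.5% were called in either direction, 14.1% higher and 16.3% lower. The gene that rose was Psmb8. At an unadjusted p under 0.05 there were 3 members higher (Psmb8, Tap1 and Psmb10) and 0 lower. All of the 30.5% of genes called pass that unadjusted threshold too, and the full share was not counted. DESeq2's Wald test also called 1 member higher and 0 lower, beside 2458 and 3221 of the 18621 genes it tested. Log2 fold changes of the members by edgeR ran from -0.086 to 0.34, with 8 positive and 2 negative, where 9158 of the 16753 genes were positive. Their median was 0.085 beside 0.033 over all genes tested. The genotypes overlapped in all 10 members, while 2.71% of all genes had every Lmna iADKO library above every Lmna fl/fl library and 3.93% the reverse.

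**Figure D1:**
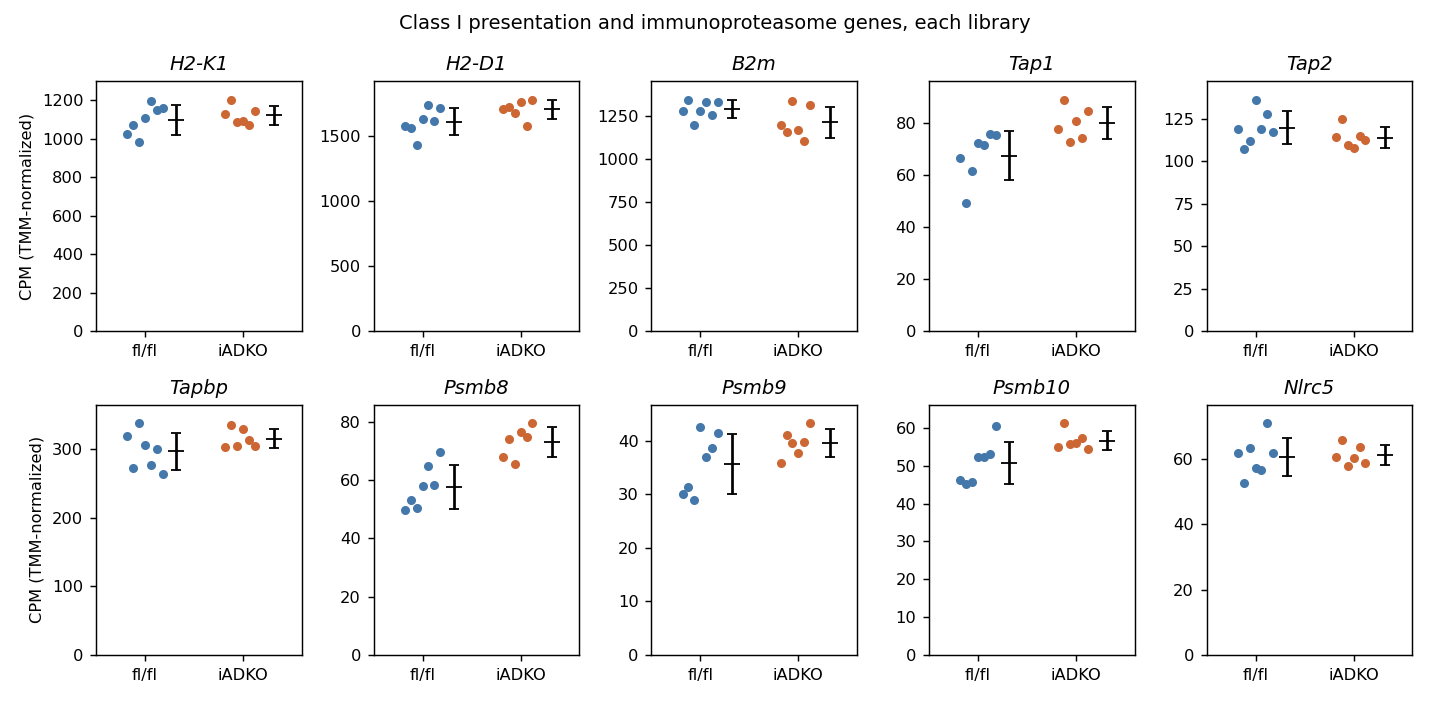
Level of each of the 10 genes in CPM (y axis, from 0), with 1 point per library for 7 Lmna fl/fl and 6 Lmna iADKO mice and the mean ± SD beside them. The points of the genotypes overlap in every panel, and for Psmb8 the lowest Lmna iADKO library (65.5 CPM) stands above 6 of the 7 Lmna fl/fl libraries.

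H2-K1 (ENSMUSG00000061232, chr17:34214987-34219321 on GRCm39, minus strand) encodes the classical heavy chain K. Its level was 984, 1109 and 1197 CPM in the lowest, median and highest Lmna fl/fl library and 1071, 1112 and 1205 CPM in Lmna iADKO. The Lmna iADKO values lay inside the Lmna fl/fl range except for replicate 2, just above it. It averaged 1099.7 ± 77.5 CPM over the 7 Lmna fl/fl mice and 1122 ± 48.8 CPM over the 6 Lmna iADKO mice (mean ± SD), which gave a log2 fold change of 0.029 (SE 0.068, 95% CI -0.12 to 0.17, edgeR adjusted p = 0.771).

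H2-D1 (ENSMUSG00000073411, chr17:35481691-35486475, plus strand), the other classical heavy chain gene listed here, was the member with the most counts. It was at 1427, 1613 and 1736 CPM in the lowest, median and highest Lmna fl/fl library and at 1578, 1713 and 1779 CPM in Lmna iADKO. The genotypes overlapped, with 2 of the 6 Lmna iADKO libraries above the highest Lmna fl/fl library. The difference did not pass the test (log2 fold change 0.082, SE 0.070, 95% CI -0.068 to 0.23, edgeR adjusted p = 0.388). Heavy chain genes resemble each other, and 2.03% of the 100-base windows of H2-K1 transcripts and 2.53% of those of H2-D1 also occur in another gene on the same strand, chiefly other H2 genes, so a small share of their reads could not be placed with certainty. With transcripts of the opposite strand included the shares were 10.4% and 12.2%, and Gm53999 and 5430410E06Rik, which lie antisense to them, held most of these windows.

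B2m (ENSMUSG00000060802, chr2:121977957-121983594, plus strand) encodes beta-2-microglobulin, the light chain that every class I heavy chain needs to reach the surface. It was at 1199, 1281 and 1347 CPM in the lowest, median and highest Lmna fl/fl library and at 1109, 1187 and 1336 CPM in Lmna iADKO. In 4 of the 6 Lmna iADKO libraries it was below the Lmna fl/fl median, and replicates 3 and 6 were above it. It averaged 1289.8 ± 52.0 CPM over the 7 Lmna fl/fl mice and 1215 ± 90.9 CPM over the 6 Lmna iADKO mice (mean ± SD), which gave a log2 fold change of -0.086 (SE 0.068, 95% CI -0.23 to 0.060, edgeR adjusted p = 0.354). The upper ends of the 95% intervals were 1.13-fold for H2-K1, 1.18-fold for H2-D1 and 1.04-fold for B2m on the TMM scale.

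Tap1 (ENSMUSG00000037321, chr17:34405996-34416199, plus strand) and Tap2 (ENSMUSG00000024339, chr17:34422501-34435829, plus strand) encode the paired chains of the TAP peptide transporter. Tap1 was at 49.4, 71.4 and 75.7 CPM in the lowest, median and highest Lmna fl/fl library and at 72.9, 79.2 and 89.0 CPM in Lmna iADKO. In 4 of the 6 Lmna iADKO libraries it was above the highest Lmna fl/fl library, and Lmna fl/fl replicate 2 was the lowest of all. It averaged 67.5 ± 9.41 CPM over the 7 Lmna fl/fl mice and 79.8 ± 6.15 CPM over the 6 Lmna iADKO mice (mean ± SD), and the log2 fold change of 0.24 (SE 0.090, 95% CI 0.050 to 0.43) missed the threshold (edgeR adjusted p = 0.0537). With each library left out in turn, Tap1 passed in 3 of 13 fits and not in the other 10. The adjusted p was 0.0423, 0.0468 and 0.0411 without Lmna fl/fl replicate 5, 6 or 7, and up to 0.117 in the rest.

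Tap2 stood on the other side of 0. It was at 107, 119 and 136 CPM in the lowest, median and highest Lmna fl/fl library and at 108, 114 and 125 CPM in Lmna iADKO, and the Lmna iADKO range lay inside that of Lmna fl/fl. Its log2 fold change was -0.071 (SE 0.058, 95% CI -0.20 to 0.054, edgeR adjusted p = 0.371). Whether the fold changes of Tap1 and Tap2 differ from each other was not tested.

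Tapbp (ENSMUSG00000024308, chr17:34134873-34148267, plus strand), which encodes tapasin, was at 265, 301 and 338 CPM in the lowest, median and highest Lmna fl/fl library and at 303, 310.0 and 336 CPM in Lmna iADKO. The Lmna iADKO libraries lay within the Lmna fl/fl range and were less spread. The log2 fold change was 0.087 (SE 0.064, 95% CI -0.049 to 0.22, edgeR adjusted p = 0.314). Of its 100-base windows, 12.2% occur on the same strand in another gene, nearly all of them in Zbtb22, and 31.3% when transcripts of the opposite strand, chiefly Gm19412, are included.

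Psmb8 (ENSMUSG00000024338, chr17:34416690-34420428, plus strand), also named Lmp7, encodes the inducible subunit that takes the place of Psmb5. It was at 49.5, 58.0 and 69.6 CPM in the lowest, median and highest Lmna fl/fl library and at 65.5, 74.4 and 79.4 CPM in Lmna iADKO. In 4 of the 6 Lmna iADKO libraries it was above every Lmna fl/fl library, and the groups overlapped only through Lmna fl/fl replicate 7 and Lmna iADKO replicates 1 and 3. It averaged 57.6 ± 7.44 CPM over the 7 Lmna fl/fl mice and 73.0 ± 5.26 CPM over the 6 Lmna iADKO mice (mean ± SD). Psmb8 rose 1.27-fold (95% CI 1.12 to 1.43), a log2 fold change of 0.34 (SE 0.080, edgeR adjusted p = 0.00652). With each library left out in turn the adjusted p was between 0.00223 and 0.0169. The call was lost when the fit included the level of macrophage markers (0.23, adjusted p = 0.283) or of T cell markers (0.066, adjusted p = 0.84), and both marker sums moved with genotype. The library names carry numbers that fall into series, which no label explains, and within the series that hold both genotypes the Psmb8 difference in mean log2 CPM was 0.48 (3 Lmna fl/fl and 2 Lmna iADKO libraries) and 0.35 (2 and 2), with no test.

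Psmb9 (ENSMUSG00000096727, chr17:34400960-34406738, minus strand), also named Lmp2 and the inducible counterpart of Psmb6, was at 28.9, 36.9 and 42.6 CPM in the lowest, median and highest Lmna fl/fl library and at 35.8, 39.7 and 43.3 CPM in Lmna iADKO. Lmna fl/fl replicates 1, 2 and 3, which share a series of library numbers, were below every Lmna iADKO library and the other 4 were among them. The log2 fold change was 0.15 (SE 0.093, 95% CI -0.052 to 0.34, edgeR adjusted p = 0.243). Psmb9 and Tap1 overlap by 743 bases on opposite strands, and 13.8% of the windows of Psmb9 occur in Tap1 transcripts read in the other direction. The libraries were strand-specific, and whether the counting used the strand is not given in the sources used here.

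Psmb10 (ENSMUSG00000031897, chr8:106662362-106665077, minus strand), the inducible counterpart of Psmb7, was at 45.2, 52.2 and 60.6 CPM in the lowest, median and highest Lmna fl/fl library and at 54.4, 55.8 and 61.2 CPM in Lmna iADKO. All Lmna fl/fl libraries but replicate 7 were below every Lmna iADKO library. It averaged 50.8 ± 5.52 CPM over the 7 Lmna fl/fl mice and 56.6 ± 2.49 CPM over the 6 Lmna iADKO mice (mean ± SD), which gave a log2 fold change of 0.16 (SE 0.067, 95% CI 0.014 to 0.30) that did not pass (edgeR adjusted p = 0.0882). Without Lmna fl/fl replicate 7 it was 0.20 (adjusted p = 0.0159), and with any other library left out it did not pass (adjusted p up to 0.171). In the fit without that replicate, 3 of the 10 members were higher (Tap1, Psmb8 and Psmb10), beside 2418 of 16667 genes tested.

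Nlrc5 (ENSMUSG00000074151, chr8:95160984-95253900, plus strand) encodes the transactivator of class I genes, which works through factors already bound to their promoters. It was at 52.6, 61.8 and 70.9 CPM in the lowest, median and highest Lmna fl/fl library and at 57.9, 60.5 and 65.9 CPM in Lmna iADKO, all within the Lmna fl/fl range. The log2 fold change was 0.013 (SE 0.063, 95% CI -0.12 to 0.15, edgeR adjusted p = 0.889), and its sign turned with DESeq2's size factors.

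Whether members other than Psmb8 passed the test depended on how libraries were scaled. With library totals in place of TMM factors, an alternative added after seeing the data, 8 of the 10 members were higher (all but B2m and Tap2) and 0 were lower, and all 10 fold changes were positive, B2m at 0.11 and Tap2 at 0.13 on the log2 scale. The whole table moved too. With library totals 44.2% of all genes tested were called higher, 85.3% of all calls were higher instead of 46.4%, and the median log2 fold change of all genes was 0.24 instead of 0.033. The median of the members was 0.29, so that relative to the median gene they stood at about the same place under both scalings. On library totals Tap1, Tapbp and Psmb8 did not overlap between genotypes, and neither did 11.5% of all genes in this direction. Psmb8 had the largest fold change of the members under both, 0.54 on library totals.

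**Figure D2:**
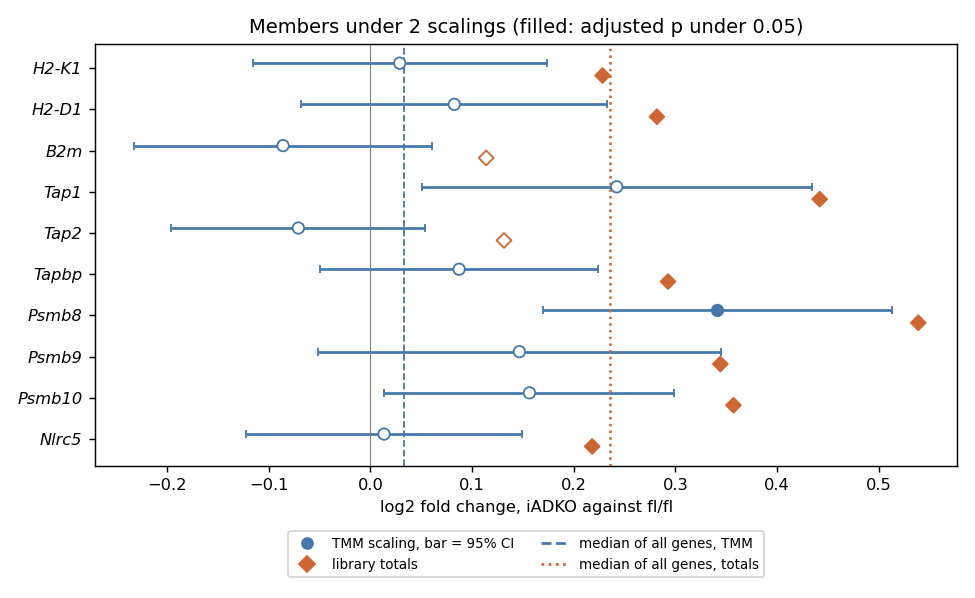
Log2 fold change of each member (x axis) by edgeR with TMM factors (circles, with 95% CI) and with library totals (diamonds), filled where the adjusted p is under 0.05. Vertical lines mark the median of all genes tested, 0.033 with TMM and 0.24 with totals, and all members shift to the right together with that median.

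The proportion of inducible to constitutive subunit within a library does not depend on scaling. The log2 ratio of Psmb10 to Psmb7 was between -1.80 and -0.91 in Lmna fl/fl and between -0.88 and -0.20 in Lmna iADKO. Every Lmna iADKO library was above every Lmna fl/fl library, the nearest pair being Lmna fl/fl replicate 5 and Lmna iADKO replicate 6. The means were -1.36 ± 0.29 (SD, n = 7) and -0.66 ± 0.24 (SD, n = 6), a difference of 0.70 or 1.62-fold (exact two-sided permutation test, p = 0.00117, adjusted over the 3 ratios 0.0035). Psmb7, the denominator, fell from 131 ± 18.5 to 89.9 ± 10.6 CPM, with a log2 fold change of -0.54 (SE 0.10, edgeR adjusted p = 0.00178).

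The ratio of Psmb8 to Psmb5 was 0.59 ± 0.47 (SD, n = 7) and 1.03 ± 0.10 (SD, n = 6) on the log2 scale. The groups overlapped because Lmna fl/fl replicate 5, at 1.35, was above every Lmna iADKO library, which lay between 0.83 and 1.09. The difference of 0.44 gave p = 0.0443 in the exact permutation test and 0.0664 after adjustment over the 3 ratios. Without Lmna fl/fl replicate 5 it was 0.57 (adjusted p = 0.00325), and with any other library left out it did not pass (adjusted p up to 0.123). The ratio of Psmb9 to Psmb6 was -1.25 ± 0.28 and -1.12 ± 0.11, a difference of 0.13 that did not pass (exact permutation p = 0.283). Neither Psmb5 (log2 fold change -0.13, edgeR adjusted p = 0.468) nor Psmb6 (0.019, adjusted p = 0.864) passed the test itself. With library totals Psmb6 was higher (0.22, adjusted p = 0.00978) and Psmb5 was at 0.086 without passing. The smallest p that 7 against 6 libraries can give in the permutation test is 0.000583.

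**Figure D3:**
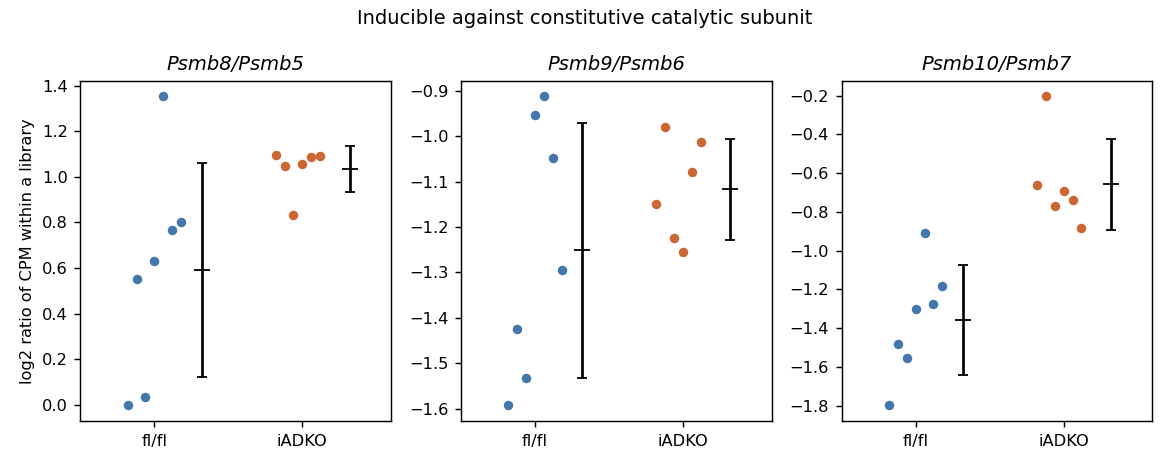
Log2 ratio of each inducible proteasome subunit to the constitutive subunit it replaces, with 1 point per library and the mean ± SD for 7 Lmna fl/fl and 6 Lmna iADKO mice. The genotypes separate for Psmb10/Psmb7 and overlap for Psmb8/Psmb5 and Psmb9/Psmb6.

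Around the members, 62 further genes of the pathway were listed in 6 lists, and 54 of them were tested. Of these, 6 were higher and 7 lower, where 14.1% and 16.3% of all genes tested were, with a median log2 fold change of 0.056 beside 0.033 over all genes. None separated the genotypes upward and 3 did so downward (Cd1d1, Mr1 and Psme4), beside 2.71% and 3.93% of all genes. Without Lmna fl/fl replicate 5 the number higher was 12, while that over all genes went from 2367 to 3319. With library totals 35 were higher and 5 lower, where 44.2% of all genes were higher.

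The class Ib and class I-like heavy chains moved in both directions, with 3 of 16 higher and 4 lower, where 14.1% and 16.3% of all genes tested were. The largest changes were downward. H2-Q10, a secreted class Ib chain, fell from 69.2 ± 24.3 to 27.1 ± 18.4 CPM (log2 fold change -1.35, edgeR adjusted p = 0.0203). Cd1d1, which presents lipids to NKT cells, fell from 382 ± 68.8 to 202 ± 51.4 CPM without overlap (-0.92, adjusted p = 0.00134). Its close copy Cd1d2 fell by 0.81 (adjusted p = 0.00225), and Mr1, which presents vitamin metabolites to MAIT cells, fell by 0.65 (adjusted p = 5.73e-04). The 3 that rose were chosen for naming after their values were seen. They were H2-T23, the chain Qa-1 (0.31, adjusted p = 0.0116), H2-M3, which presents formylated peptides (0.39, adjusted p = 0.00472), and H2-T10 (0.41, adjusted p = 0.0172). H2-Q10, Cd1d1, Cd1d2 and Mr1 were also lower with library totals. Shared sequence was counted for the members only, so the certainty of read placement for these genes is not known. H2-Q10 held 86 of the 100-base windows of H2-K1, and H2-T23 held 46 of those of H2-D1.

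Peptide trimming and loading genes beyond Tapbp and the TAP genes did not pass in any of 8 cases by edgeR, with 2 at an unadjusted p under 0.05 and 1 called higher by DESeq2. Over all genes tested by edgeR, 14.1% were higher and 16.3% lower. Among 5 proteasome activator and assembly genes, the interferon-induced activator subunits were at log2 fold changes of 0.072 for Psme1 (adjusted p = 0.336) and 0.079 for Psme2 (adjusted p = 0.367). Psme4, which encodes the activator PA200, fell from 118 ± 12.9 to 93.3 ± 3.53 CPM (-0.34, adjusted p = 0.00232), a change that did not pass with library totals (-0.14, adjusted p = 0.0639). Of 8 partner factors of NLRC5 at class I promoters, 1 was higher, where 14.1% of all genes tested were. It was Nfya, a subunit of the CCAAT-binding factor NF-Y (0.39, adjusted p = 0.0175), and the other 7 did not pass.

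Among 14 interferon signaling genes tested, 2 were higher, where 14.1% of all genes tested were. Irf8, a transcription factor of myeloid cells and B cells, rose from 50.2 ± 9.60 to 80.1 ± 14.8 CPM (0.67, edgeR adjusted p = 0.00279), and Ifngr2, a chain of the interferon gamma receptor, rose as well (0.36, adjusted p = 0.00948). Irf1, which interferon gamma induces and which binds class I promoters, was at 80.2 ± 9.27 and 83.6 ± 3.21 CPM (0.060, adjusted p = 0.547), and with library totals it was higher (0.26, adjusted p = 0.0114). Ifng, the gene of interferon gamma itself, did not pass the filter on low counts.

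**Figure D4:**
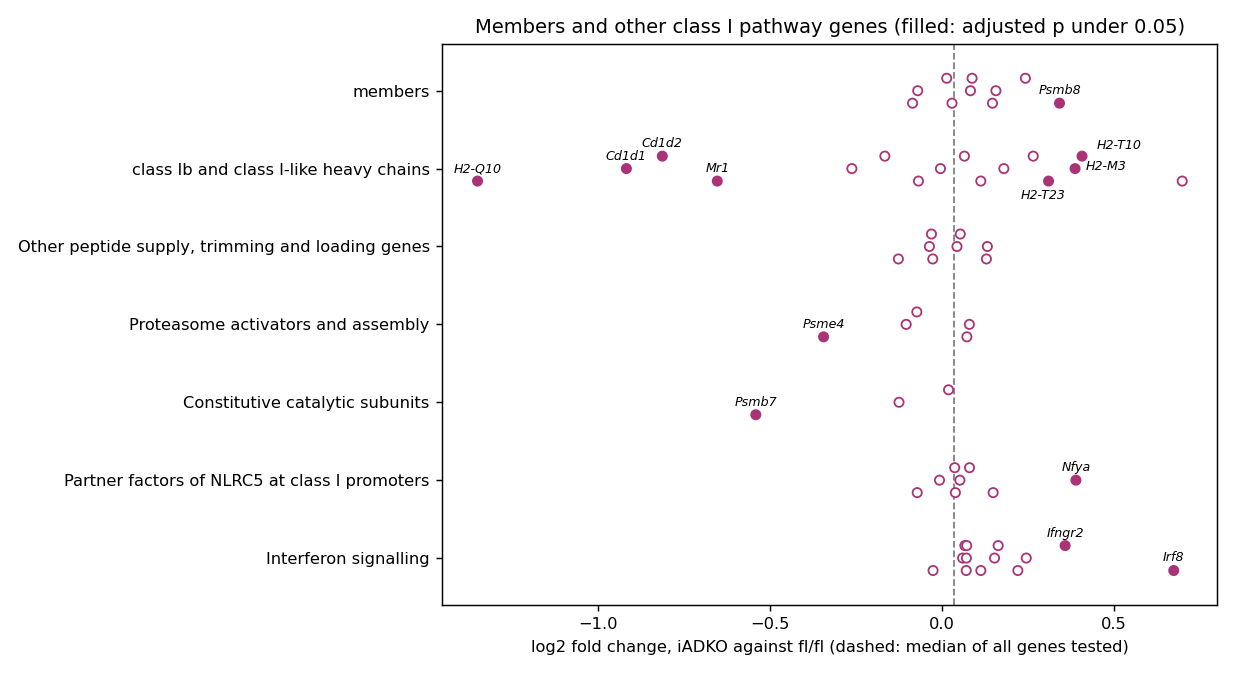
Log2 fold change (x axis) of the 10 members and of other pathway genes in 6 lists (rows, a gene that is not reported here left out), with 1 point per gene, offset up or down only to separate points, filled and named where the edgeR adjusted p is under 0.05. The loading genes sit close to the median of all genes (dashed), and the members run from -0.086 to 0.34 (Psmb8). Class I-like chains spread from -1.35 to 0.70, where the upper end is H2-M2, which did not pass.

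Every member is expressed by immune cells as well as by adipocytes. In bulk tissue a change in the number of cells of a type and one in RNA per cell cannot be told apart. The paper's flow cytometry of pmWAT, also 2 weeks posttamoxifen, showed no differences between genotypes in leukocytes, macrophages or T cells. Markers of several cell types moved with genotype, where 14.1% of all genes tested were higher and 16.3% lower. All 5 pan-leukocyte markers were higher in Lmna iADKO, and their sum was between 392 and 960 CPM in Lmna fl/fl and between 659 and 1072 CPM in Lmna iADKO. Of 10 macrophage markers 6 were higher (sum 2047 to 5312 and 3089 to 5322 CPM), and of 9 T cell markers 4 were higher (26.5 to 41.2 and 43.1 to 51.9 CPM, without overlap). Of 6 NK and cytotoxic markers 3 were higher (6.15 to 12.9 and 13.1 to 16.4 CPM, without overlap), and of 5 B cell markers 2 were higher (20.8 to 57.5 and 38.0 to 84.2 CPM). All 8 adipocyte markers were lower (12581 to 23099 and 8152 to 14060.0 CPM), and 3 of 6 endothelial markers were lower. Of the other lists, 4 of 6 dendritic, 1 of 4 neutrophil, 2 of 4 epithelial and 1 of 3 tested lymph node markers were higher, and 0 of 5 progenitor, 0 of 5 mesothelial and 0 of 5 skeletal muscle markers were called. None of these markers was at 0 in every library.

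Psmb8 and the marker sums were also set side by side library by library. Lmna fl/fl replicates 5 and 7 had the highest leukocyte sums of their genotype, 960.1 and 702 CPM, and also its highest Psmb8 levels, 64.6 and 69.6 CPM. Lmna iADKO replicate 6 had the lowest leukocyte sum of its genotype, 659 CPM, and the highest Psmb8 level of all 13 libraries, 79.4 CPM. The same library had an epithelial marker sum of 171 CPM, against 11.1 to 56.9 CPM in the other libraries, and a T cell sum of 47.8 CPM, above every Lmna fl/fl library. The part of these cells in the Psmb8 level was not tested. With the mean log2 CPM of the macrophage markers as a covariate, 0 members passed by edgeR (1 at an unadjusted p under 0.05). When T cell markers were used instead, 0 members passed (2 under 0.05, both lower). In those fits 195 and 15 genes were higher and 266 and 11 lower in the whole table. The T cell sum did not overlap between genotypes. The covariate was the mean log2 CPM of the same markers, so it may not be separable from genotype, which was not tested.

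**Figure D5:**
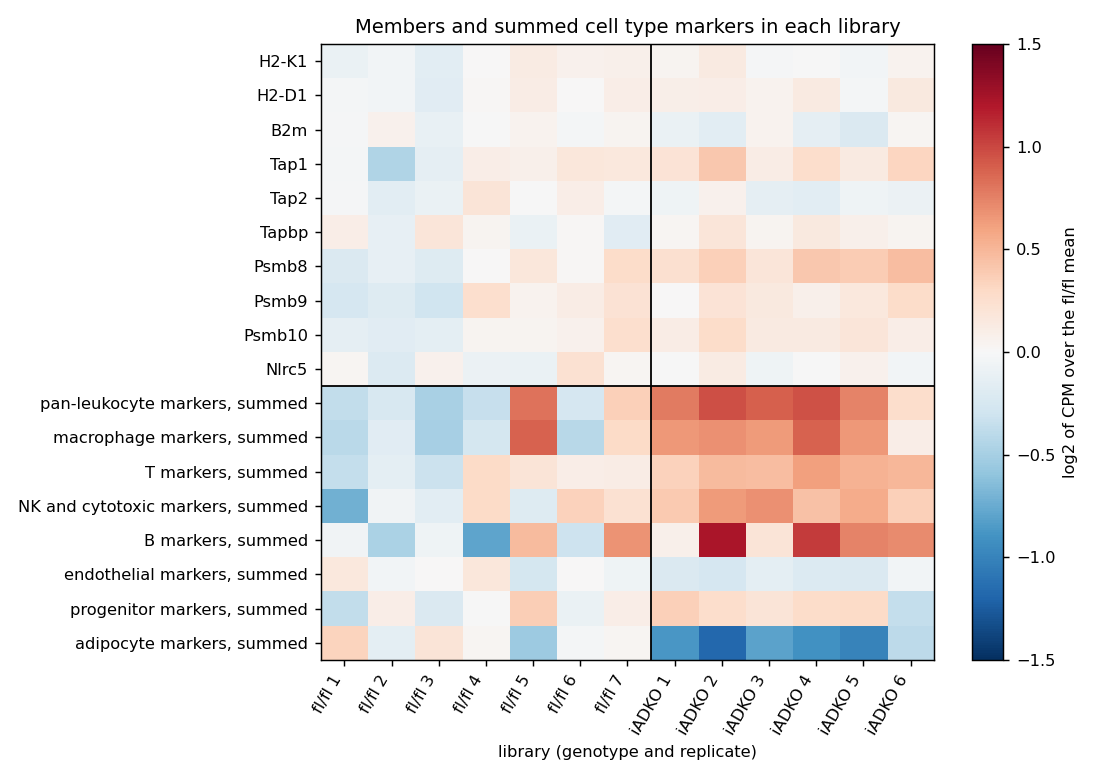
Log2 of the CPM over the Lmna fl/fl mean (color) for the 10 members (upper rows) and for summed markers of 8 cell types (lower rows) in each of the 13 libraries (columns). The member rows are pale in both genotypes, while the leukocyte rows are mostly red and the adipocyte row mostly blue in Lmna iADKO.

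Of the 10 members, 7 lie on chromosome 17, where Psmb9, Tap1, Psmb8 and Tap2 occupy one stretch of 34870 bases in the MHC class II region, with 490 bases between Tap1 and Psmb8 and 2072 between Psmb8 and Tap2. The neighbors Psmb8 and Tap2 in it had log2 fold changes of 0.34 and -0.071, whose difference was not tested. After the mean of each genotype was subtracted, the Pearson correlation between members over the 13 libraries had a median of 0.43 over 45 pairs, 34 of them positive. The correlation was 0.82 for H2-K1 and H2-D1 and 0.80, 0.78 and 0.77 among Psmb9, Psmb10 and Psmb8, while B2m and Tapbp gave the lowest value, -0.64. The libraries share their depth and cell composition across genes, so these values describe the libraries only. The genes most like the mean of the members in this sense, among 13844 searched, were 2410002F23Rik (0.89), Spindoc and Zcchc4 (both 0.86), Il18rap (0.86), a receptor chain for interleukin-18, and Eeig1 (0.86). These are the highest values of a search over many genes with few libraries, and whether they exceed chance was not tested.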

How the data were processed

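RNA was taken from powdered frozen pmWAT, and mRNA libraries that keep the strand were read as pairs on the DNBSEQ platform. The submitters' processing notes name FastQC 0.12.1, STAR 2.7.11a, DESeq2 and the build mm39. The counting tool, its strand setting and the annotation are not given in the sources used here. The authors deposited unnormalized counts of reads on each gene, and log2 values made from the same counts by DESeq2's regularized log, which were used for an alternative only. No deposited sample column was left unused (0 columns).

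Identifiers were named from GENCODE vM39, and 33184 of 33618 matched. In R 4.3.3, edgeR 4.0.16 was used on the whole table (filterByExpr, TMM, robust quasi-likelihood fit, Benjamini-Hochberg threshold 0.05). Log2 CPM used a prior count of 2, and subunit ratios were tested in Python 3.11.15 by exact two-sided permutation of the libraries. A 95% CI came from the fold change and its test statistic. Replicates of a genotype were separate mice, and their counts differed by more than sampling noise (chi-square per degree of freedom at least 8.90). An SD is taken over mice and so holds both biological and counting error. The test was checked on simulated counts.

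Alternatives were library totals (added after seeing the data), edgeR with size factors from DESeq2 1.42.0, that tool's own Wald test, no low-count filter, a minimum of 10 counts per library, the replicate number as a block, the series of library numbers as a block, limma 3.58.1 on the log2 values, macrophage and T cell marker scores as covariates, and each library left out in turn. All libraries carry one batch label, and some of the series of library numbers hold libraries of one genotype only. The members, the gene lists and the tests were chosen with earlier results of these data known. Genes named were all 10 members, the 3 constitutive subunits, Psme1, Psme2, Irf1, up to 4 genes per pathway list with the largest absolute log2 fold change among those past the threshold, and the 5 genes most correlated with the members among those averaging 1 or more in log2 CPM. Shared sequence was counted as 100-base windows of annotated transcripts. The adjusted p of each gene is over all genes tested. A gene that the rule also names is not reported here, and the counts over the lists include it.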

Additional observations from a re-analysis of the deposited data

Results flagged for a closer look

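A library stood apart from the others of its genotype by Dixon's 95% limit in 2 of 26 groups examined (10 members and 3 subunit ratios in each genotype), and chance flags about 1 in 20 groups. The log2 ratio of Psmb8 to Psmb5 in Lmna iADKO replicate 3 was 0.83, below the other 5 libraries, of which the nearest was at 1.05. The log2 ratio of Psmb10 to Psmb7 in Lmna iADKO replicate 2 was -0.20, above the other 5 libraries, of which the nearest was at -0.66. That library had the lowest Psmb7 level, 70.5 CPM.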

How the results depend on the processing

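The number of members higher, 1 with TMM, was 2 with at least 10 counts in every library, 2 with the series of library numbers as a block, 8 with library totals, and 0 with the macrophage and 0 with the T cell score. With 1 library left out it was 1 to 3. The other 4 alternatives without a block gave 1, and 0 members were lower under every alternative run. The number of pathway genes higher, 6, was 35 with library totals, 0 with each of the scores (2 and 1 at an unadjusted p under 0.05) and 6 to 12 with 1 library left out. The number lower, 7, was 0 with each score (6 and 5 unadjusted) and 7 to 8 with 1 library left out. The difference in the log2 ratio of Psmb8 to Psmb5 was 0.34 to 0.57 with 1 library left out, that of Psmb9 to Psmb6 was 0.077 to 0.19, and that of Psmb10 to Psmb7 was 0.61 to 0.77. Over all genes, 2367 were higher and 2737 lower with TMM, against 7397 and 1276 with library totals, 784 and 1202 with the series as a block, 1623 and 2382 without the low-count filter, and 195 and 266 or 15 and 11 with the macrophage or T cell score. With at least 10 counts in every library, 2421 were higher and 2643 lower of 14939 genes tested. With 1 library left out, 1769 to 3319 genes were higher and 2216 to 3285 lower. Why the scores removed the calls was not tested.

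Same-numbered libraries were not established as pairs, since the correlations of their deviations were between -0.026 and 0.217. With the replicate block (without Lmna fl/fl replicate 7) 2 members were higher (Psmb8 and Psmb10), beside 2379 of 16667 genes tested. The Psmb10 to Psmb7 difference was 0.73 as the mean of 6 pairs, with an adjusted exact p of 0.0938, and 0.0312 is the smallest unadjusted p that 6 pairs can give.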
